A study of Mus musculus with 4 samples.

Results

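Genes for RNA polymerase I (Pol I) and for ribosome assembly were examined in haematopoietic stem cells (HSC) that had lost the retinoblastoma (Rb) family. The 51 genes were chosen by name, as Pol I machinery, proteins of small nucleolar ribonucleoproteins (snoRNPs), assembly factors of the small and of the large ribosomal subunit, and nucleolar proteins with several roles. All 51 were found among the 18193 genes measured, each read from 1 probe set annotated to that gene alone, the one whose mean over the 4 arrays was highest. The cells were KLS CD48- CD150+ HSC from adult mice, sorted 2 weeks after tamoxifen started recombination. The 2 Rb family deficient pools carried the genotype Rb -/- p130 -/- p107-/-, and the 2 wild type pools Rb +/+ p130 +/+ p107-/-, so p107 (Rbl1) was missing by label from both groups. Each pool came from 3 mice, the labels give tamoxifen for all 4 pools, and no source used here names the driver of recombination. Values are RMA log2 expression values, and a difference is Rb family deficient minus wild type unless it is said to be between pools of 1 group.

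Ribosomes are built in the nucleolus. Pol I transcribes the long ribosomal RNA (rRNA) precursor with the help of UBF, SL1 and TIF-IA, snoRNPs guide the chemical modification of that precursor, and separate sets of assembly factors fold, cut and export the small and large subunits. Many genes of this pathway are textbook targets of Myc, and Rb itself is known to restrain Pol I by binding UBF. Stem cells at rest are known for a low rate of protein synthesis.

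Of the 51 genes, 45 had a difference below 0 and 6 had one above 0, with a median of -0.21 on the log2 scale, or 1.16-fold lower in the deficient pools. Both deficient pools lay below both wild type pools for 26 of the 51, and no member had both deficient pools above both wild type pools. Among all genes the first pattern held for 18.5% and the second for 17%, and 50.8% of all genes had a difference below 0. By limma, with Benjamini-Hochberg adjustment over all 18193 genes, 0 of the 51 passed an adjusted p of 0.05, as did 0% of all genes. The smallest adjusted p of a member was 0.761. At an unadjusted p under 0.05, 5 members were lower and 0 higher, where 4.04% of all genes were lower and 2.19% higher. These 5 were Utp6, Taf1a, Polr1b, Ddx21 and Rrn3. Without deficient pool 1 or without wild type pool 1, 1 member was at an unadjusted p under 0.05, Taf1a in each case, and without deficient pool 2 or wild type pool 2 there were 7. When the probe sets of a gene were averaged, 9 members were at that level, 4 of them among the 5.

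**Figure D1:**
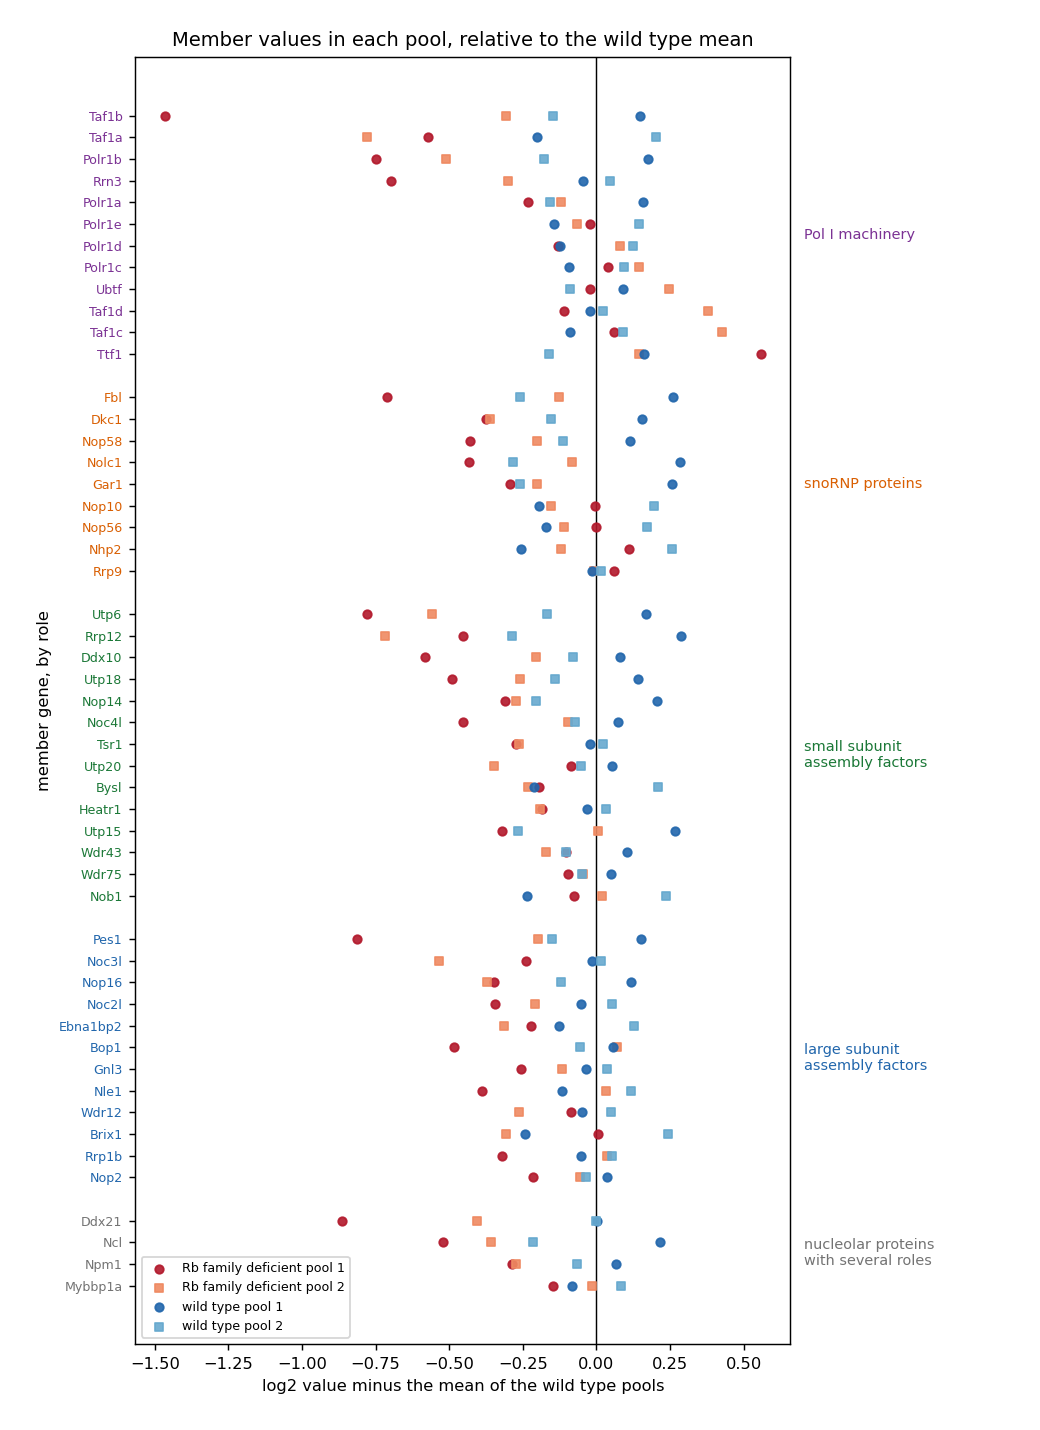
Log2 value of each of the 51 genes in each pool (x axis), set relative to the mean of the 2 wild type pools, with genes grouped by role (y axis). Red and orange symbols are the Rb family deficient pools and blue symbols the wild type pools. For 26 genes both deficient symbols lie left of both wild type symbols.

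The level of a gene bears on how these counts are read. Of the 9093 genes with a mean log2 value of 7 or more, 63.6% had a difference below 0, with a median of -0.09, and for 26.5% both deficient pools lay below both wild type pools. The 49 members at that level had 87.8% below 0, a median of -0.21 and 24 genes, or 49.0%, with both deficient pools below both wild type pools. For unadjusted p under 0.05 and lower, the shares were 10.2% of these 49 and 6.05% of the 9093. The level of 7 was chosen after the values had been seen, and Taf1b and Rrp12 were the 2 members below it.

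**Figure D2:**
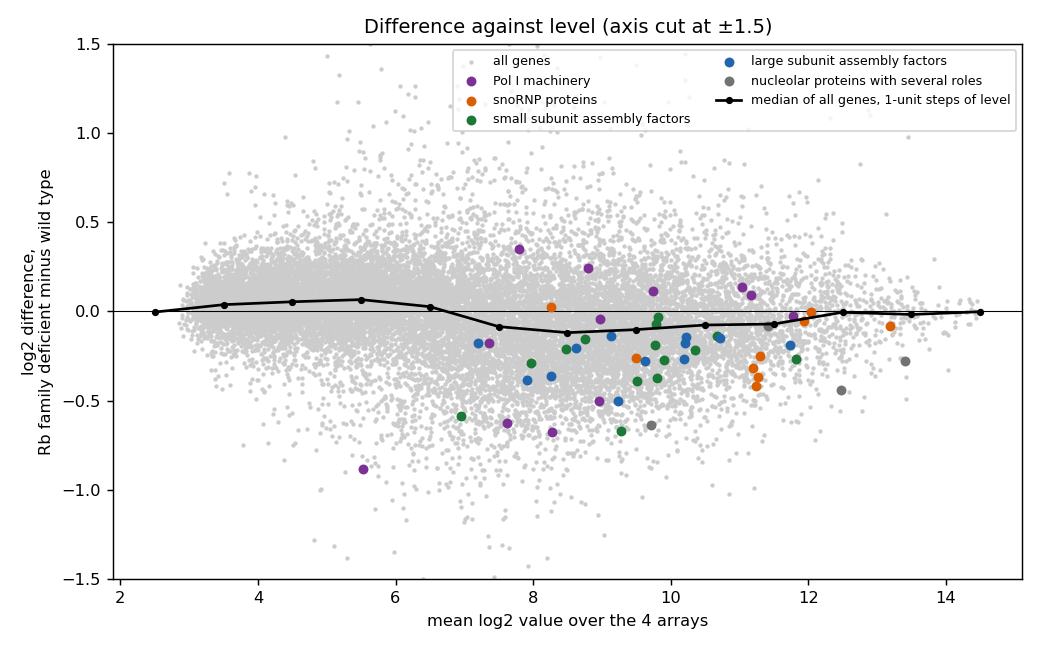
Difference of each gene, Rb family deficient minus wild type on the log2 scale (y axis), against its mean log2 value over the 4 arrays (x axis). Grey points are all genes, coloured points the 51 members by role, and the black line is the median of all genes in steps of 1 unit. Between levels of 7 and 12 the black line runs from -0.12 to -0.07. Between levels of 12 and 15 it lies between -0.017 and -0.002. Over all levels the 51 members run from -0.89 to 0.35. The y axis ends at 1.5 in either direction, so genes beyond it are not drawn.

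Single members also differed between pools of 1 group. The median absolute difference over the 51 genes was 0.24 for deficient minus wild type, taken between means of 2 pools. Taken between single pools, it was 0.21 within the deficient group and 0.24 within the wild type group. Means of 2 pools vary less than single pools, so these values are not measured alike. The signs within a group were more evenly split than the 45 below 0 and 6 above 0 between groups. Deficient pool 2 stood above pool 1 for 34 members and below it for 17, with a median of 0.11. Wild type pool 2 stood above pool 1 for 24 and below it for 27, with a median of -0.07. With each deficient pool set against each wild type pool, the median over the 51 genes was -0.27 and -0.23 for deficient pool 1 and -0.21 and -0.14 for deficient pool 2, against wild type pools 1 and 2 in that order. Nothing in the labels states whether the pools of a group shared mice or a day, so limma's p-values measure only the spread between these pools. In pooled RNA, fewer cells of a type and less RNA per cell cannot be told apart.

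The array context was as follows. Array medians ran from 5.99 to 6.02 in the deficient pools and from 5.94 to 5.96 in the wild type pools. Among the targeted genes, Rbl2 stood at 7.82 and 8.21 in deficient HSC versus 8.94 and 8.75 in wild type HSC, Rb1 at 9.82 and 9.72, against 9.37 and 9.58, and Rbl1, deleted by label in both groups, at 5.35 and 5.42, against 5.92 and 6.77. Where these probes lie relative to the deleted exons is not stated in the sources used, so these values are no check of the labels. Of the sorting markers, Kit had 9.94 and 10.45 in deficient HSC versus 11.09 and 10.47 in wild type HSC (a dimmer Kit probe set had 6.82 and 7.70 versus 6.80 and 6.66, the other direction), Slamf1 (CD150) 9.26 and 9.90 versus 8.81 and 9.86, and Cd48 6.29 and 6.57 versus 5.84 and 7.09. For the Actb controls, the 3' probe set exceeded the 5' one by 3.13 and 2.95 in deficient HSC versus 2.32 and 2.81 in wild type HSC. The Actb groups did not overlap. For the Gapdh controls this was 2.79 and 2.50 in deficient HSC versus 2.40 and 2.58 in wild type HSC, and the groups overlapped. Stem cell markers had 8 of 12 genes below 0, and their summed linear level was 14719 to 19103 in the deficient pools and 20561 to 22823 in the wild type pools. Mature neutrophil markers had 11 of 12 genes above 0, with a summed linear level of 43242 to 68104 in the deficient pools and 20636 to 43569 in the wild type pools. Markers of granulocyte and monocyte progenitors had 7 of 7 above 0 with overlapping sums, 7534 to 20316 in the deficient pools and 4261 to 16935 in the wild type pools. RMA values hold no 0, so no marker was listed at 0. The part of RNA quality and of these markers in the differences of the 51 genes was not tested.

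Promoter sequence was read for the members from RefSeq windows of build GRCm38.p6, from 250 bases before to 50 bases after each annotated start, which 46 of the 51 genes had. Bop1, Fbl, Npm1, Rrp12 and Utp6 had none in the table. The windows were searched on both strands for the Myc-type E-box CACGTG and for 2 E2F-type motifs, TTTCCCGC and TTTGGCGC. No member window held both kinds, so none of their matches overlapped. An E-box was found for 9 of the 46 genes, or 19.6%, against 10.2% of the 14452 genes on the array with a window and 8.09% of all 27025 genes with a window. It was found for 4 of 12 small subunit factors (Tsr1, Utp18, Utp20 and Wdr43), 3 of 11 large subunit factors (Nle1, Nop2 and Pes1), 1 of 12 Pol I genes (Rrn3), 1 of 3 nucleolar proteins (Mybbp1a) and 0 of 8 snoRNP proteins. An E2F-type motif was found for 3 of the 46, Ncl, Nolc1 and Nop58, or 6.52%, against 2.77% of the genes on the array and 1.80% of all genes. The 9 genes with an E-box had a median difference of -0.22 and the 37 with a window but no E-box one of -0.19. These matches describe letters in a window and are not binding sites measured here. The windows of 5 members are printed with the motif in capitals: Rrn3, Utp18 and Pes1, the genes with an E-box that had the lowest p among the Pol I, small subunit and large subunit genes, chosen after their values were seen, and Ncl and Nolc1, which have an E2F-type motif.

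The Rrn3 window (chr16:13780449-13780748, plus strand) has E-boxes starting at -215 and -48, that of Utp18 (chr11:93885717-93886016, minus strand) 1 at -20 and that of Pes1 (chr11:3963725-3964024, plus strand) 1 at 3, counted from 1 at the start with no position 0. The Ncl window (chr1:86359406-86359705, minus strand) has an E2F-type motif in reverse orientation at -224, and the Nolc1 window (chr19:46075597-46075896, plus strand) has one at -117.
Rrn3: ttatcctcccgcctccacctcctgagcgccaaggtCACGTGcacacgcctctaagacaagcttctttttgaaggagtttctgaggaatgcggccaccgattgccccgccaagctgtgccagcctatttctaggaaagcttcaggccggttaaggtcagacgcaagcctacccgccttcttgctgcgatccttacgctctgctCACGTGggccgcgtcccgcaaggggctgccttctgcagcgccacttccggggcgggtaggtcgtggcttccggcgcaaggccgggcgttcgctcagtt
Utp18: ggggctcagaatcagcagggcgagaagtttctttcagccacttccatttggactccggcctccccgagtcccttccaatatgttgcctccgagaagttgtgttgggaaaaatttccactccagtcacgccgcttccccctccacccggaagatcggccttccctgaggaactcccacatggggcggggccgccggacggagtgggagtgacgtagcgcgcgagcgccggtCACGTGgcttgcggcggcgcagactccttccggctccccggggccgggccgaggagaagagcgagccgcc
Pes1: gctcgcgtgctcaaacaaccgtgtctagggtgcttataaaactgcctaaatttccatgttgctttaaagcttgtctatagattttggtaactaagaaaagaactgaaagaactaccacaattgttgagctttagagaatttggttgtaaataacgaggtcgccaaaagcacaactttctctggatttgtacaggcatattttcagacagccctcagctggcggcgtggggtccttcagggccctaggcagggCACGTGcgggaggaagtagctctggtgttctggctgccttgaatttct
Ncl: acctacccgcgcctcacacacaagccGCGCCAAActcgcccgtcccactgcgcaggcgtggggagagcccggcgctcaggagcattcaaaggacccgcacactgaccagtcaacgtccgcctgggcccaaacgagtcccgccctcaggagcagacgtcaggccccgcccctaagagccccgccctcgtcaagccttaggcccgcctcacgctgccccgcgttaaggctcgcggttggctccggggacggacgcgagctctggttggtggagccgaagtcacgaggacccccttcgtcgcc
Nolc1: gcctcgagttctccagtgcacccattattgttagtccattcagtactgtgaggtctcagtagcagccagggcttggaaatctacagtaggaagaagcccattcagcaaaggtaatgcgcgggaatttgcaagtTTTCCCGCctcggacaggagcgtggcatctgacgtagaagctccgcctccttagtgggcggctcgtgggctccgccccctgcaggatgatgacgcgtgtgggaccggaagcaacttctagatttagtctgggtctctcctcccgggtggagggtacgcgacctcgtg

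The Pol I machinery was divided. Of its 12 genes 7 had a difference below 0 and 5 above, with a median of -0.03, which was 0.02 with median centring of the arrays, 0.01 without deficient pool 1, 0.06 without wild type pool 2 and -0.26 when gene-specific probe sets were preferred. Both deficient pools lay below both wild type pools for 4 genes, Taf1a, Polr1b, Rrn3 and Taf1b, and 3 of these were at an unadjusted p under 0.05. The first pattern held for 26.5% of genes with a mean of 7 or more, so 4 of 12 is near that background, and 6.05% of those genes were lower at that p. By limma 0 passed over all genes.

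Taf1a, a subunit of SL1 (the factor that places Pol I at the rRNA gene promoter), had log2 values of 8.05 and 7.84 in deficient HSC versus 8.42 and 8.82 in wild type HSC. It was 1.60-fold lower, with a difference of -0.68 (SE 0.20, n = 2 pools in each group, adjusted p = 0.761 by limma). Taf1b, another SL1 subunit, had 4.50 and 5.66 in deficient HSC versus 6.11 and 5.82 in wild type HSC. Its difference was -0.89 (SE 0.39), and it was -0.31 without deficient pool 1, the one pool that stood far below the rest. The other SL1 subunits lay on the opposite side. Taf1c had a difference of 0.24 (SE 0.19). Taf1d had 10.86 and 11.35 in deficient HSC versus 10.95 and 10.997 in wild type HSC, so the groups overlapped. The difference of Taf1d was 0.13 (SE 0.21), but its 6 dimmer probe sets ran from -0.47 to 0.11, with 5 of them below 0.

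Polr1b, the second-largest subunit of the Pol I core, stood at 7.19 and 7.42 in deficient HSC versus 8.11 and 7.76 in wild type HSC. It was 1.55-fold lower, with a difference of -0.63 (SE 0.19, adjusted p = 0.761 by limma) from its 1 probe set. Rrn3, which encodes TIF-IA, the growth-regulated factor that joins Pol I to SL1, stood at 8.51 and 8.91 in deficient HSC versus 9.17 and 9.26 in wild type HSC. It was 1.41-fold lower, with a difference of -0.50 (SE 0.19, adjusted p = 0.785 by limma), and its 2 E-boxes are printed above. Polr1a, the largest subunit, had 7.21 and 7.33 in deficient HSC versus 7.603 and 7.29 in wild type HSC, which overlapped. Its difference was -0.18 (SE 0.17), and its 4 other probe sets ran from -0.12 to 0.08.

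Polr1c and Polr1d are subunits that Pol I shares with RNA polymerase III. Polr1c had a difference of 0.09 (SE 0.15) and Polr1d one of -0.02 (SE 0.17), although the dimmest of the 4 Polr1d probe sets differed by -0.48. Polr1e, a subunit specific to Pol I, had a difference of -0.04 (SE 0.17), and its dimmer probe set one of -0.34. Ubtf, which encodes UBF, the protein that keeps rRNA genes open, had a difference of 0.11 (SE 0.17), and its dimmer probe set differed by 0.42. The sign of Polr1c, Ubtf, Taf1d, Polr1d and Polr1e turned when some single pool was left out, and that of Polr1d and Polr1e also with median centring.

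Ttf1, which binds the terminator of the rRNA genes and stops Pol I, had the highest difference of the 51. It stood at 8.18 and 7.77 in deficient HSC versus 7.79 and 7.46 in wild type HSC, and the groups overlapped. The difference was 0.35 (SE 0.21) for this probe set. A probe set of nearly the same level, a mean of 7.79 against 7.80, differed by -0.42 (SE 0.16) and the dimmest by -0.16. The direction of Ttf1 therefore depended on the probe set.

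**Figure D3:**
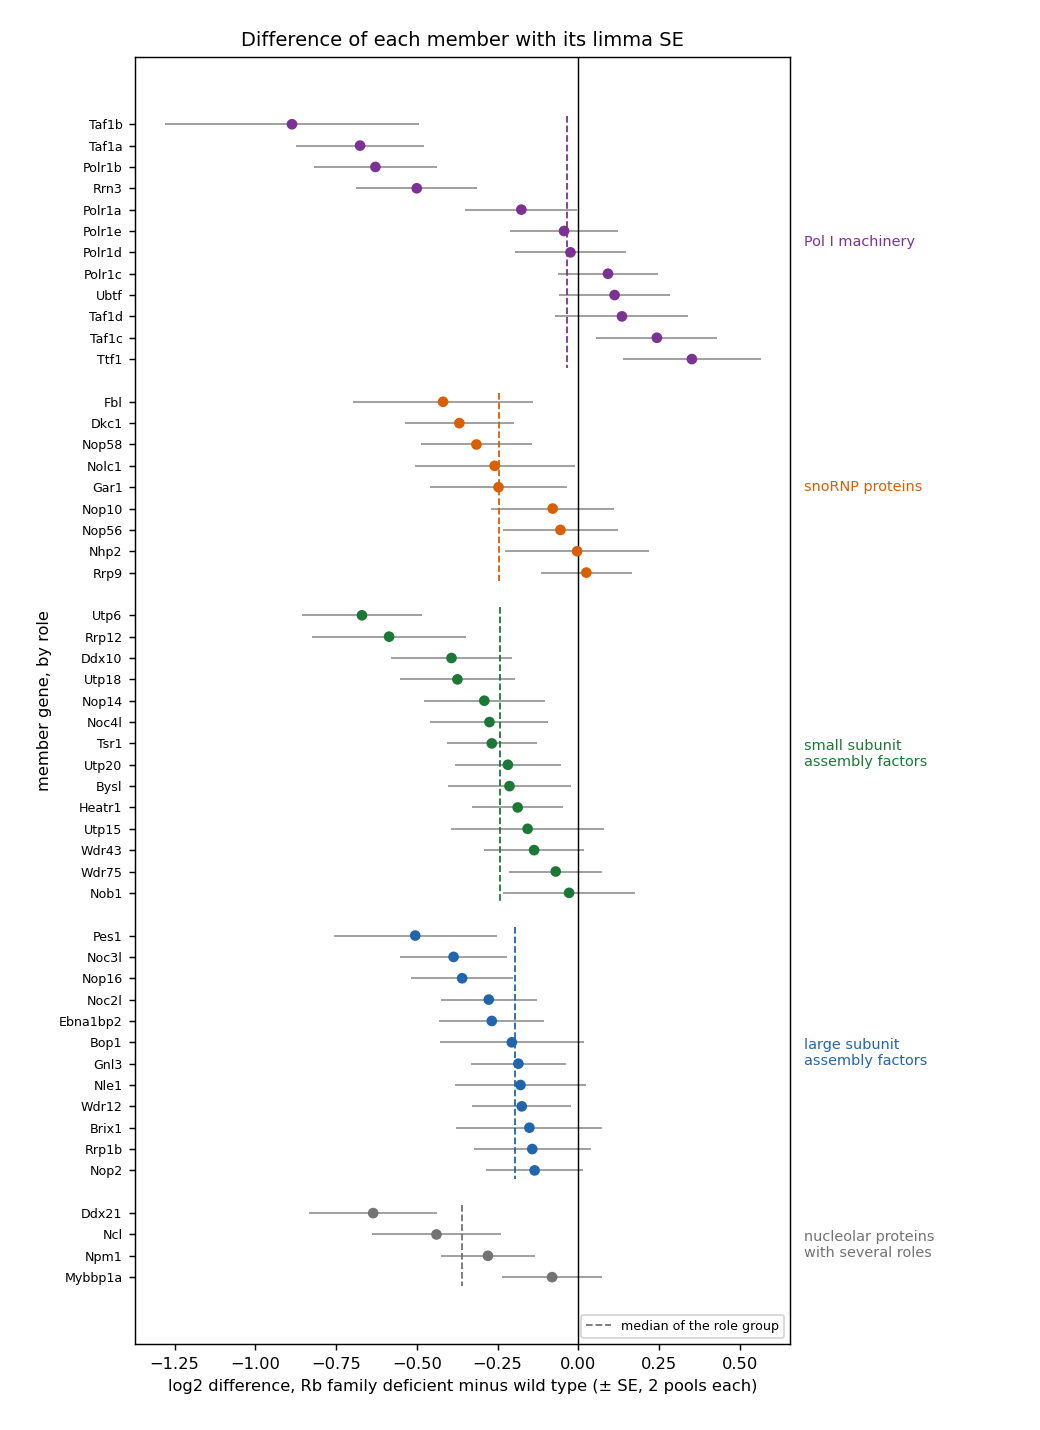
Log2 difference of each member, Rb family deficient minus wild type, with its limma standard error (x axis), by role (y axis); dashed lines are the medians of the role groups. The median of the Pol I machinery, at -0.03 (0.02 with median centring), lies closest to 0, and its genes spread from -0.89 for Taf1b to 0.35 for Ttf1. This order depended on the probe set rule. With plain _at names preferred, the Pol I median was -0.26, beside -0.25 for snoRNP proteins and -0.20 for large subunit factors.

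The snoRNP proteins had 8 of 9 genes below 0, with a median of -0.25, or 1.19-fold lower in the deficient pools. Among genes with a mean of 7 or more, 63.6% were below 0. Both deficient pools lay below both wild type pools for 2 of the 9, Dkc1 and Nop58. This share lies between the 18.5% of all genes and the 26.5% of genes with a mean of 7 or more. By limma 0 passed over all genes, and 0 were at an unadjusted p under 0.05. Between the wild type pools, pool 2 minus pool 1 had a median of -0.23 in these genes. The median of the group comparison was -0.13 with deficient pool 1 left out and -0.43 with wild type pool 2 left out.

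The box C/D proteins carry the machinery that methylates rRNA. Fbl, the methyltransferase itself, had 10.74 and 11.33 in deficient HSC versus 11.71 and 11.19 in wild type HSC. The groups overlapped, since deficient pool 2 stood above wild type pool 2, and the difference was -0.42 (SE 0.28). Its dimmer probe set differed by -0.80 (SE 0.45). Nop58, a scaffold protein of the same particle, had 10.92 and 11.15 in deficient HSC versus 11.47 and 11.24 in wild type HSC. Its difference was -0.32 (SE 0.17, adjusted p = 0.823 by limma). Its partner Nop56 differed by -0.06 (SE 0.18). Rrp9, a protein of the U3 snoRNP, which takes part in cutting the precursor, had overlapping groups and differed by 0.02 (SE 0.14).

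The box H/ACA proteins convert uridine in rRNA to pseudouridine. Dkc1, the enzyme of the particle, stood at 11.08 and 11.09 in deficient HSC versus 11.61 and 11.30 in wild type HSC. It was 1.29-fold lower, with a difference of -0.37 (SE 0.17, adjusted p = 0.802 by limma). A second Dkc1 probe set differed by -0.30 (SE 0.15) and the third by 0.12 (SE 0.24). Gar1 had 11.12 and 11.22 in deficient HSC versus 11.67 and 11.16 in wild type HSC, where wild type pool 1 stood apart from the other 3. Its difference was -0.25 (SE 0.21), and 0.01 without wild type pool 1. Nop10 and Nhp2, the small partners of Dkc1, differed by -0.08 (SE 0.19) and by -0.00 (SE 0.22).

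Nolc1 encodes Nopp140, a chaperone that binds both kinds of snoRNP in the nucleolus. Its brightest probe set had 9.20 and 9.55 in deficient HSC versus 9.91 and 9.35 in wild type HSC, which overlapped, and the difference was -0.26 (SE 0.25). A dimmer probe set had 6.49 and 7.002 in deficient HSC versus 8.28 and 7.90 in wild type HSC, a difference of -1.34 (SE 0.24). The third and dimmest differed by -0.11 (SE 0.15). Of the members with several probe sets, Nolc1 had the widest range of differences among them, 1.23.

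The small subunit assembly factors lay below 0 in 14 of 14 genes, with a median of -0.24, or 1.18-fold lower in the deficient pools. Both deficient pools lay below both wild type pools for 9 of the 14. This pattern held for 18.5% of all genes and for 26.5% of genes with a mean of 7 or more. At that level 63.6% of genes had a difference below 0. By limma 0 passed over all genes. Utp6 was lower at an unadjusted p under 0.05, as were 4.04% of all genes and 6.05% of genes at that level. With a pool left out the median ran from -0.31 to -0.22.

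The small subunit processome is the particle that forms on the nascent precursor. Utp6, of its UTP-B subcomplex, had 8.83 and 9.05 in deficient HSC versus 9.78 and 9.44 in wild type HSC. It was 1.59-fold lower, with a difference of -0.67 (SE 0.19, n = 2 pools in each group, adjusted p = 0.761 by limma), and both other Utp6 probe sets were also below 0, at -0.32 and -0.58. Utp18, of the same subcomplex, had 9.49 and 9.72 in deficient HSC versus 10.12 and 9.84 in wild type HSC. Its difference was -0.37 (SE 0.18). Ddx10, a helicase known in yeast to release a snoRNA from the precursor, stood at 9.13 and 9.51 in deficient HSC versus 9.79 and 9.63 in wild type HSC, a difference of -0.39 (SE 0.19).

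Rrp12, which is needed for export of the pre-ribosomal subunits, had 6.78 and 6.52 in deficient HSC versus 7.52 and 6.95 in wild type HSC. Its difference was -0.59 (SE 0.24, adjusted p = 0.796 by limma). Tsr1, a late factor of the small subunit, stood at 11.68 and 11.69 in deficient HSC versus 11.93 and 11.97 in wild type HSC, a difference of -0.27 (SE 0.14). The dimmer Tsr1 probe set gave -0.52 (SE 0.19). Nop14, Noc4l and Utp20, further processome proteins, had differences of -0.29, -0.28 and -0.22 (SE 0.19, 0.18 and 0.16), each with both deficient pools below both wild type pools.

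The UTP-A subcomplex, which links the processome to Pol I transcription, had a median of -0.15. Heatr1 had 9.68 and 9.67 in deficient HSC versus 9.83 and 9.89 in wild type HSC, a difference of -0.19 (SE 0.14). Its 2 dimmer probe sets differed by 0.14 and 0.23. Wdr75 had 9.72 and 9.78 in deficient HSC versus 9.87 and 9.77 in wild type HSC, a difference of -0.07 (SE 0.14), and its dimmer probe set differed by 0.32. Wdr43 differed by -0.14 (SE 0.15) and Utp15 by -0.16 (SE 0.24), and for both the groups overlapped. The late factors Bysl and Nob1, of which Nob1 is the endonuclease that makes the end of the mature small subunit rRNA, differed by -0.21 (SE 0.19) and -0.03 (SE 0.20), and their groups overlapped as well.

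The large subunit assembly factors lay below 0 in 12 of 12 genes, with a median of -0.20, or 1.15-fold lower in the deficient pools. Both deficient pools lay below both wild type pools for 8 of the 12, where this held for 18.5% of all genes. Among genes with a mean of 7 or more it held for 26.5%, and 63.6% had a difference below 0. By limma 0 passed over all genes, and 0 were at an unadjusted p under 0.05. With a pool left out the median ran from -0.29 to -0.16.

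Pes1, Bop1 and Wdr12 form the PeBoW complex, which is needed to process the large subunit rRNA. Pes1 had 8.67 and 9.29 in deficient HSC versus 9.64 and 9.33 in wild type HSC. It was 1.42-fold lower, with a difference of -0.51 (SE 0.25, adjusted p = 0.813 by limma), and the dimmer Pes1 probe set gave -0.46 (SE 0.14). Bop1 had 8.25 and 8.80 in deficient HSC versus 8.78 and 8.68 in wild type HSC. Only deficient pool 1 stood below the others there, and the difference was -0.21 (SE 0.22), with 0.08 for the dimmer probe set. Wdr12 had 10.21 and 10.03 in deficient HSC versus 10.24 and 10.35 in wild type HSC, a difference of -0.18 (SE 0.15). The second Wdr12 probe set differed by 0.18 and the dimmest by -0.35.

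Noc3l, a nucleolar complex protein, had 7.87 and 7.57 in deficient HSC versus 8.09 and 8.12 in wild type HSC. Its difference was -0.39 (SE 0.17). Noc2l, another nucleolar complex protein, had 9.42 and 9.55 in deficient HSC versus 9.71 and 9.81 in wild type HSC, a difference of -0.28 (SE 0.15). The second Noc2l probe set differed by 0.23 (SE 0.18), so the direction depended on the probe set. Nop16, a factor of the early large subunit particle, had 8.09 and 8.06 in deficient HSC versus 8.55 and 8.31 in wild type HSC, a difference of -0.36 (SE 0.16).

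Ebna1bp2, a scaffold of early particles, had 10.11 and 10.01 in deficient HSC versus 10.20 and 10.45 in wild type HSC, which did not overlap. Its difference was -0.27 (SE 0.16), while its 2 much dimmer probe sets differed by 0.05 and -0.04. Brix1 had 10.80 and 10.49 in deficient HSC versus 10.55 and 11.04 in wild type HSC, and overlapped. Its difference was -0.15 (SE 0.23), and -0.67 (SE 0.28) for the dimmer probe set. Rrp1b had 9.97 and 10.33 in deficient HSC versus 10.24 and 10.35 in wild type HSC, a difference of -0.14 (SE 0.18), with 0.13 and -0.02 for its other probe sets. The GTPase Gnl3, known as nucleostemin, differed by -0.19 (SE 0.15) and the rRNA methyltransferase Nop2 by -0.14 (SE 0.15), both without overlap. Nle1, a late factor, differed by -0.18 (SE 0.20), with overlap.

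The 4 nucleolar proteins with several roles had a median of -0.36, or 1.28-fold lower in the deficient pools, with 4 of 4 below 0. Among genes with a mean of 7 or more, 63.6% were below 0. Both deficient pools lay below both wild type pools for 3 of the 4, where this held for 26.5% of genes at that level. By limma 0 passed over all genes. With a pool left out the median ran from -0.49 to -0.22. It was -0.54 when plain _at names were preferred, where Mybbp1a was read from its dimmer probe set at -0.64. Ddx21, a helicase that acts on both rRNA genes and genes of ribosome components, had 9.16 and 9.62 in deficient HSC versus 10.03 and 10.03 in wild type HSC. It was 1.55-fold lower, with a difference of -0.64 (SE 0.20, n = 2 pools in each group, adjusted p = 0.761 by limma), and the dimmer Ddx21 probe set gave -0.36 (SE 0.18).

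Nucleolin (Ncl), an abundant protein of the early precursor, stood at 12.18 and 12.34 in deficient HSC versus 12.92 and 12.48 in wild type HSC. It was 1.36-fold lower, with a difference of -0.44 (SE 0.20). Its other probe sets differed by -0.03, -0.28, -0.42 and, for the dimmest, 0.16. Nucleophosmin (Npm1), a chaperone of late nucleolar steps, stood at 13.26 and 13.27 in deficient HSC versus 13.61 and 13.48 in wild type HSC, a difference of -0.28 (SE 0.14). The second Npm1 probe set differed by -0.47 (SE 0.18). Mybbp1a, a Myb-binding protein of the nucleolus that is known to act on Pol I, had 11.30 and 11.44 in deficient HSC versus 11.37 and 11.53 in wild type HSC, and overlapped. Its difference was -0.08 (SE 0.15), and -0.64 (SE 0.27) for its dimmer probe set.

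**Figure D4:**
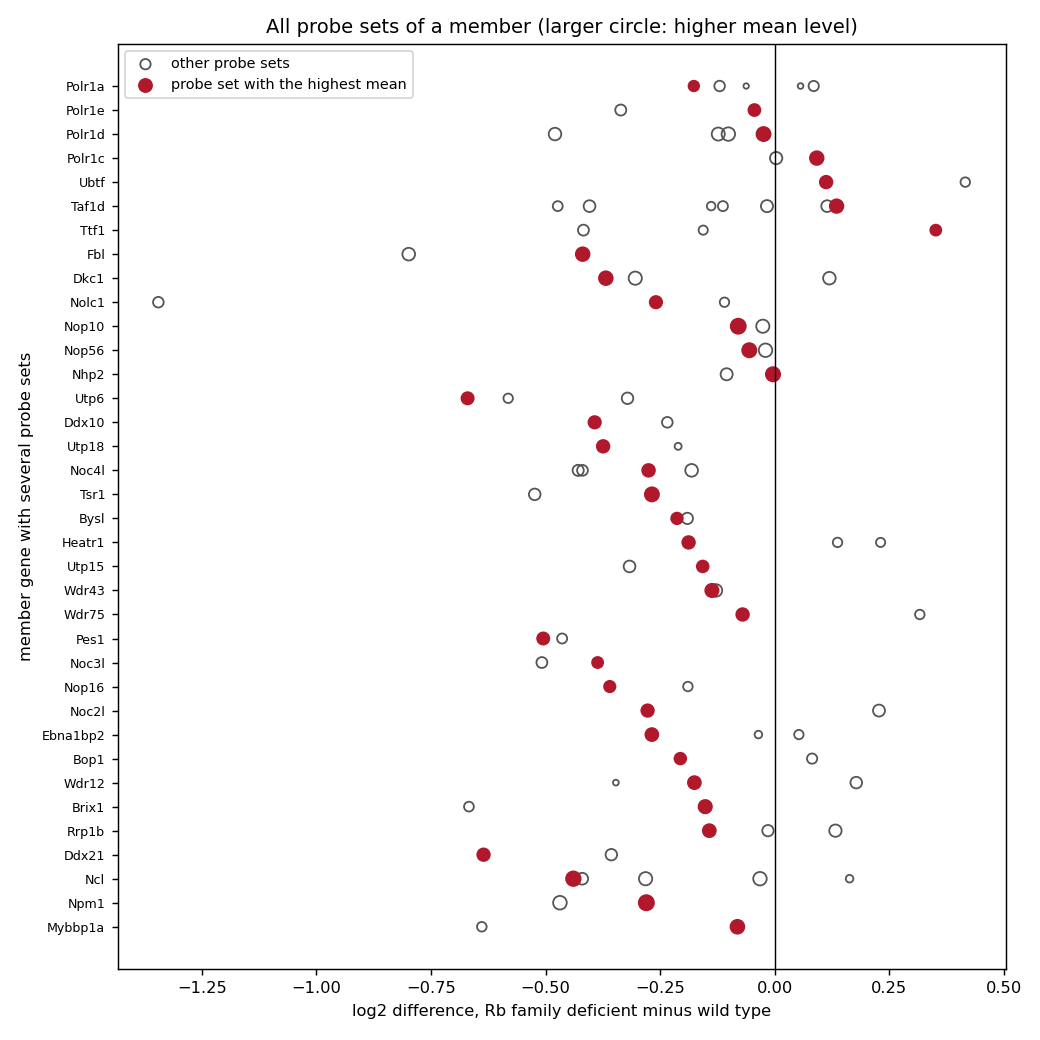
Log2 difference, Rb family deficient minus wild type (x axis), of each probe set of the 36 members with several (y axis), with larger circles for higher mean levels. Filled circles are the probe sets with the highest mean, open circles the others. Of the 59 open circles 44 lie below 0, and 12 genes have a probe set on the opposite side of 0 from the filled circle.

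The probe sets not used for the gene values gave the same members a second reading on the same arrays. The 51 genes had 110 probe sets in all, 15 genes had 1 and 36 had several. Of the 59 probe sets that were not the brightest, 44 differed by less than 0, with a median of -0.14. For 12 of the 36 genes at least 1 probe set lay on the opposite side of 0 from the brightest one, and for 8 the probe sets differed from each other by over 0.5. These probe sets share the RNA of the same pools and are not replicates.

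The rest of the pathway was read from lists made from general knowledge of the field. Of 41 other small subunit factors 30 lay below 0, with a median of -0.14, and of 50 other large subunit factors 38 lay below 0, with a median of -0.18. Further snoRNP assembly factors and exonucleases had 14 of 23 below 0 (median -0.10). Other Pol I subunits and cofactors had 6 of 10 below 0 (median -0.09), and their median was 0.06 when plain _at names were preferred. Over these 124 genes together 88 lay below 0, or 71.0%, where 63.6% of genes with a mean of 7 or more did. Both deficient pools lay below both wild type pools for 48 and above both for 6. The pattern above held for 17% of all genes and for 967 of the 9093 with a mean of 7 or more. By limma 0 of the 124 passed over all genes, while an unadjusted p under 0.05 was reached by 8 lower genes and 0 higher ones. The 8 are 6.45% of the 124, close to the 6.05% of genes with a mean of 7 or more, and the 48 are 38.7%, where those genes had 26.5%.

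The genes with the lowest p in these lists were the large subunit factors Ppan (-0.66, SE 0.19) and Ddx27 (-0.89, SE 0.25), the small subunit factors Pdcd11 (-0.60, SE 0.19) and Rrp7a (-0.48, SE 0.15), the snoRNP assembly factors Nufip1 (-0.43, SE 0.16) and Ruvbl1 (-0.42, SE 0.18), and Cavin1 (-0.46, SE 0.20) and Baz2a (-0.29, SE 0.16) among the Pol I cofactors. RNA polymerase III subunits and factors had 14 of 21 below 0, with a median of -0.12. Their lowest p values belonged to subunits that differed in opposite directions, Polr3f at 0.70 (SE 0.14) and Polr3b at -0.45 (SE 0.17). The ribosomal proteins themselves were split about 0. Of 77 cytosolic ribosomal protein symbols listed 43 were measured, and 24 of these lay below 0. Their median was -0.01, which turned to 0.04 with median centring. Differences ran from -0.24 to 0.50, with Rps6 (-0.24, SE 0.14) and Rpl4 (-0.21, SE 0.16) at the lowest p. Their median level was 13.9, and all genes at levels from 12 to 15 were split alike, with 51.2% to 56.0% below 0. Many ribosomal proteins are themselves among the 110 genes from 13 to 14 and the 25 from 14 to 15. That likeness is therefore partly built in. The small and large subunit members had median levels of 9.78 and 9.43, and 65.1% of all genes from 9 to 10 lay below 0.

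Mycn and Myc, which encode transcription factors of ribosome biogenesis genes, both had the deficient pools below the wild type pools in their brightest probe sets. Mycn stood at 10.495 and 10.61 in deficient HSC versus 11.13 and 11.55 in wild type HSC, a difference of -0.79 (SE 0.19, adjusted p = 0.761 by limma). Of its dimmer probe sets, one had 7.02 and 7.11 in deficient HSC versus 6.95 and 6.95 in wild type HSC, a difference of 0.11 (SE 0.14), and the other differed by -0.33 (SE 0.15). Myc, with 1 probe set, stood at 10.60 and 10.71 in deficient HSC versus 10.93 and 10.99 in wild type HSC, a difference of -0.31 (SE 0.14, adjusted p = 0.805 by limma). The median of the 4 Myc family genes was -0.19. Any part of these genes in the differences of the 51 members was not tested.

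Genes of mitosis lay mostly above 0. Of 29 G2/M and mitosis genes 26 lay above 0, with a median of 0.29, and Cdc25c (1.01, SE 0.19) and Ccna2 (0.69, SE 0.14) had the lowest p. Their median was 0.72 and 0.58 when deficient pools 1 and 2 were set against wild type pool 2, and -0.04 and -0.07 against wild type pool 1, and the median of the group difference was -0.07 without wild type pool 2. At an unadjusted p under 0.05, 6 of the 29 were higher, where 2.19% of all genes were. The assembly factor groups and the nucleolar proteins had medians below 0 in each of these 4 pairings, as did the snoRNP proteins. All genes with a mean of 7 or more also had medians below 0 in each pairing, from -0.12 to -0.05. The Pol I machinery had medians from -0.15 to 0.03.

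**Figure D5:**
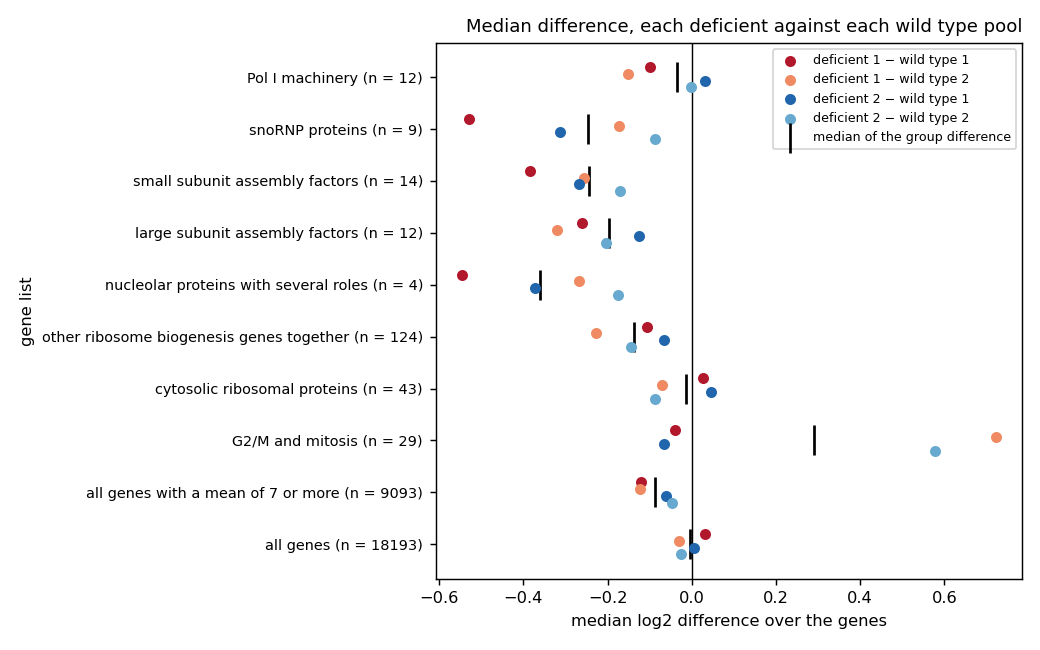
Median log2 difference over the genes of each list (x axis) for each deficient pool minus each wild type pool (coloured points), with the median of the group difference as a black bar, by list (y axis). Small and large subunit factors lie below 0 in all 4 pairings, from -0.38 to -0.13, while G2/M genes lie above 0 only against wild type pool 2. All genes with a mean of 7 or more also lie below 0 in all 4 pairings, from -0.12 to -0.05. Pol I genes and ribosomal proteins have medians of -0.03 and -0.01, which turn above 0 with median centring. With plain _at names preferred they were -0.26 and -0.02.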

How the data were processed

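For each of the 4 arrays the authors deposited 1 log2 expression value for every probe set. The submitters' processing notes name RMA and limma but no settings. The log2 scale follows from the range of values, 2.65 to 14.9. RMA gives arrays nearly the same distribution, so a shift in RNA content per cell cannot be seen, and it compresses folds of dim probe sets. Precision is limited by the number of arrays. Of 45101 probe sets, 34945 had exactly 1 gene symbol in the platform annotation of 2016, and 932 had several and were not used. Symbols were updated by Entrez ID through a RefSeq table (34741 matched), which gave 18193 genes. No dim gene was left out.

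Differences were fitted with limma 3.58.1 (lmFit, eBayes) in R 4.3.3 on all 4 arrays with no block, adjusted over all genes at 0.05, after the code had been tested on simulated data. Every SE of a gene is limma's moderated SE. An SE of a further probe set comes from a fit over all probe sets with 1 symbol. The alternatives left out each pool, added a replicate block, changed the probe set rule, centred medians, left out dim genes or used an intensity trend. A changed probe set rule either averaged the probe sets of a gene or preferred plain _at names. The latter put _a_at, _s_at and _x_at names last whatever their level. Summed levels are sums of the values raised from log2 to linear. Pool values were given for the 4 members of each role with the lowest p and for those whose probe sets differed in sign or by over 0.5, and 2 genes with the lowest p were named for each other list described by genes. Pool values of Tsr1 were added after its values were seen. An exact permutation test of 2 against 2 pools cannot go below 0.333 two-sided and was not used. Members, role groups and lists were chosen with earlier results of these data known, so no list was tested.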

Additional observations from a re-analysis of the deposited data

How the results depend on the processing

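No member passed limma's adjusted threshold of 0.05 under any of the 11 alternatives, and the smallest adjusted p of a member was 0.458. Of the 51 members 30 kept their direction under all 11, and 31 stayed below 0 with each pool left out in turn. The same counts were not taken over all genes, so they do not set the members apart. The level of 7 was added as a limit after the data were seen. Nothing in the labels ties equal pool numbers across groups, and their deviations correlated at -0.188 over all genes; the replicate block left the median over members at -0.21 and put 4 members lower at an unadjusted p under 0.05, 3 of them among the 5 without it. That count was 9 when the probe sets of a gene were averaged and ran from 1 to 7 with a pool left out.

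When plain _at names were preferred, medians were -0.26 for Pol I machinery, -0.54 for nucleolar proteins and 0.060 for other Pol I cofactors. They were -0.19 for other small and -0.22 for other large subunit factors, and Ttf1 differed by -0.42 and Wdr75 by 0.32. When the probe sets of a gene were averaged, medians were -0.16 for Pol I machinery, -0.13 for other large subunit factors and -0.067 for Pol III, and the differences were -0.13 for Taf1d, -0.074 for Ttf1, 0.060 for Heatr1 and 0.12 for Wdr75. Median centring, which shifted the median of all genes by 0.05, gave 0.020 for Pol I machinery, -0.083 for other small and -0.12 for other large subunit factors, -0.082 for the other biogenesis genes together, -0.069 for Pol III, 0.041 for ribosomal proteins, -0.13 for the Myc family, 0.036 for megakaryocyte and 0.10 for T and NK cell markers, whose medians were -0.02 and 0.04 without it. It gave 0.030 for Polr1d, 0.0099 for Polr1e, 0.050 for Nhp2 and 0.026 for Nob1. Leaving out genes with a mean under 5 or under 7 gave -0.31 for the Myc family, and under 7 gave 0.021 for megakaryocyte and 0.30 for T and NK cell markers. The cause of these shifts was not tested.

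With a pool left out, medians ran from -0.27 to -0.19 for all members, -0.12 to 0.060 for Pol I machinery, -0.43 to -0.13 for snoRNP proteins, -0.29 to -0.16 for large subunit factors and -0.49 to -0.22 for nucleolar proteins. They ran from -0.17 to 0.087 for other Pol I cofactors, -0.21 to -0.053 for other small and -0.21 to -0.13 for other large subunit factors, -0.15 to 0.018 for snoRNP assembly, -0.19 to -0.063 for these together, -0.085 to 0.041 for ribosomal proteins, -0.29 to -0.12 for the Myc family and -0.067 to 0.63 for G2/M. For markers they ran from -0.39 to -0.040 (stem cells), 0.37 to 1.31 (neutrophils), -0.41 to 1.26 (granulocyte and monocyte progenitors), -0.36 to 0.60 (erythroid), -0.12 to 0.13 (megakaryocytes), -0.13 to 0.26 (macrophages) and 0.027 to 0.50 (B cells). Single members ran from -0.48 to 0.070 (Bop1), -0.40 to 0.092 (Brix1), -0.51 to 0.011 (Gar1), -0.16 to 0.0007 (Mybbp1a), -0.26 to 0.25 (Nhp2), -0.39 to 0.032 (Nle1), -0.27 to 0.21 (Nob1), -0.54 to 0.024 (Nolc1), -0.28 to 0.12 (Nop10), -0.23 to 0.11 (Nop56), -0.0007 to 0.18 (Polr1c), -0.15 to 0.10 (Polr1d), -0.19 to 0.10 (Polr1e), -0.32 to 0.036 (Rrp1b), -0.0093 to 0.058 (Rrp9), -0.11 to 0.38 (Taf1d), -0.023 to 0.25 (Ubtf) and -0.42 to 0.11 (Utp15).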

Other observations

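Marker lists of other blood cells gave medians of 0.19 for 9 erythroid, 0.09 for 9 macrophage and 0.27 for 8 B cell genes, with 7 genes above 0 in each list. Leaving out deficient pool 1 or 2 gave B cell medians of 0.027 and 0.45 in that order, and leaving out wild type pool 1 or 2 gave 0.035 and 0.50.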
